A study of Homo sapiens with 18 samples.

Results

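Heat shock chaperones were followed in 2 human acute myeloid leukaemia lines after 48 h with a DNA methyltransferase inhibitor. The genes were chosen by symbol: HSPA1A, HSPA1B, HSPA8, HSPH1, DNAJB1, HSP90AA1, HSP90AB1, HSPD1, HSPE1 and HSPA5, with readthrough genes such as HSPE1-MOB4 left out. All 10 were listed and tested in both lines, out of the 17110 genes of the HL-60 files and the 17475 of the MOLM-13 files. HL-60 is a promyelocytic line and MOLM-13 a monocytic line with a KMT2A rearrangement. Each line was grown in RPMI1640 with serum and given DMSO, the solvent control, decitabine (DAC) or NTX-301, a code-named DNA methyltransferase inhibitor. The 6 groups held 3 replicates each, 18 samples in all, collected on day 2. The labels give 30 nM where HL-60 is concerned and 15 nM for MOLM-13, but do not say clearly if NTX-301 was used at these concentrations or DAC only. A difference between lines or between drugs therefore cannot be told apart from one of dose. Nothing states that replicates came from separate cultures, so p-values measure the spread between these samples, which may be technical. RNA was taken from whole wells, so fewer cells of a kind and less RNA per cell cannot be told apart.

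Chaperones help proteins fold and keep unfolded ones from clumping. The HSP70 proteins bind short exposed stretches with the help of J-domain proteins, which deliver clients, and exchange factors, which release nucleotide. HSP90 acts later, on kinases and receptors close to their final shape. In the mitochondrion HSPD1 and HSPE1 form a folding chamber with its lid, and HSPA5 serves the endoplasmic reticulum (ER). Heat shock factors bind repeats of the GAA unit, the heat shock element, before many of these genes, whereas HSPA5 is a textbook target of the unfolded protein response through the ER stress element. Leukaemia cells are known for a high demand on HSP70 and HSP90.

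The promoters show both kinds of element. Whether the elements bear on the drug differences was not tested. RefSeq promoter windows (250 bases before to 50 after a start, build GRCh38.p14) were found for 10 of 10 genes, 16 windows in all, since several genes have more than 1 start. The files themselves rest on build hg19, so the coordinates are those of the sequence table only. On either strand, the 2-unit element GAANNTTC lay in 8 of 16 windows, against 6.77% of 35116 windows of all genes. The 3-unit element adds 1 more GAA unit after 2 further bases and so contains the 2-unit one. It lay in 4 of 16 windows against 0.49%, and TTCNNGAA, which the 3-unit element also contains, in 4 of 16 against 7.74%. The ER stress element, CCAAT and CCACG with 9 bases between them, lay in 1 of 16 windows, that of HSPA5, against 0.0769%, and CCAAT alone in 8 of 16 against 34.6%. These are matches of letters, not binding sites. No window of HSPH1, HSPE1 or HSPA5 held a heat shock element of these forms. The same was true of some other windows of HSP90AB1, HSP90AA1 and DNAJB1. Only stretches with a match are printed. Below are stretches before the start that overlap no exon, 5′ to 3′ on the gene's strand, with heat shock elements in capitals, or the ER stress element in HSPA5. They are HSPA1A and HSPA1B at chr6:31815293-31815463 and chr6:31827488-31827734 (plus strand), HSP90AB1 at chr6:44247693-44247865 (plus), DNAJB1 at chr19:14518421-14518647 (minus) and HSPA5 at chr9:125241344-125241593 (minus).
HSPA1A: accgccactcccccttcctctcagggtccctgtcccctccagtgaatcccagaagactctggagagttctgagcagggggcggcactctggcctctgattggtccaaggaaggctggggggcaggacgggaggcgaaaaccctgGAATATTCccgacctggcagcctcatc
HSPA1B: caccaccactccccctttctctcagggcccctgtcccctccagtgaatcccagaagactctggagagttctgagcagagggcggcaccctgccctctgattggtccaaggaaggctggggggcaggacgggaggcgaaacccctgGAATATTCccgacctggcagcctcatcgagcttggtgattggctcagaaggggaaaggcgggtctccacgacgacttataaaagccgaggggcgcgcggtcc
HSP90AB1: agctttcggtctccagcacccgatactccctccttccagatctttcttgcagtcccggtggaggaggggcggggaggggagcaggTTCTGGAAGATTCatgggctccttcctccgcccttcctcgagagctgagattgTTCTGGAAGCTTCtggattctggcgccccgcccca
DNAJB1: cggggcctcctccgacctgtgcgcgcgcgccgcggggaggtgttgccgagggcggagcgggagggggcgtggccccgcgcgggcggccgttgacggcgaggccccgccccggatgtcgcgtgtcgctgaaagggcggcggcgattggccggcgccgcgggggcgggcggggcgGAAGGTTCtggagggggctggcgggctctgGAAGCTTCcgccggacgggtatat
HSPA5: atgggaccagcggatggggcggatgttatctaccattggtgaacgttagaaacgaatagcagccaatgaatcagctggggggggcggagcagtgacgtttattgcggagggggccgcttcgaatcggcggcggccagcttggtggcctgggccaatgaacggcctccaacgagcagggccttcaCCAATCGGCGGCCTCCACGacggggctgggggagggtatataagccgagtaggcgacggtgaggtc

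For 3 further genes 1 match of the 3-unit element each is shown, in capitals with 5 bases on each side. HSPA8 and HSPD1 each held another match, 230 and 240 bases before the start. The match shown began 55 bases before the start of HSPA8 (chr11:123062174-123062196, minus), 245 before that of HSPD1 (chr2:197500068-197500090, minus) and 88 before 1 start of HSP90AA1 (chr14:102087115-102087137, minus).
HSPA8: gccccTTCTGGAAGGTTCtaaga
HSPD1: gcattTTCTGGAAAGTTCtggaa
HSP90AA1: ggttcTTCCGGAAGGTTCgggag

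The 6 promyelocyte markers listed for HL-60 did not set that line apart, since all were listed in both lines. MPO, the myeloperoxidase of neutrophil granules, had a mean log2 value of 18.71 in HL-60 DMSO samples and 13.04 in MOLM-13, and CTSG 13.73 and 13.45. The other 4 had higher values in MOLM-13: ELANE (14.94 against 14.26), AZU1 (14.94 against 12.80), PRTN3 (16.89 against 16.07) and CD33 (12.40 against 11.65). The gene sets differ between the lines and the normalization is not given, so these levels carry no test. Of the 6 markers fixed for MOLM-13, which include CD33 again, all were listed there, and HOXA9 and MEIS1 (12.43 and 12.56) were not listed for HL-60. Of the markers of other cells, CD4 (also made by monocytic cells) had a mean of 12.70 in HL-60 and 12.61 in the other line. All others listed lay at or under 9.33. Read depth is unknown, and the values are log2 values on a normalized scale. The linear values of all genes, summed and given in units of 1000000, came to 61.1 to 61.5 with DMSO, 60.3 to 60.8 with DAC and 59.8 to 60.7 with NTX-301 in HL-60. In MOLM-13 the sum was 72.2 to 73.6 with DMSO, 68.0 to 71.5 with DAC and 69.2 to 69.7 with NTX-301, so in both lines every treated sample lay below every control.

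In the DMSO controls HSPA1A, HSPA1B and DNAJB1 stood at different ranks in the 2 lines. Levels are again set side by side with no test, and percentiles are not per length. HSPA1A, the inducible cytosolic HSP70, had a mean log2 value of 9.06 ± 0.062 in HL-60 (SD, n = 3), the 42nd percentile of genes listed in both lines, and 12.19 ± 0.037 in MOLM-13, percentile 77.2. Its near-copy HSPA1B stood at 9.85 ± 0.061 (percentile 48.3) and 12.87 ± 0.023 (86.3). The J-domain protein DNAJB1 went from percentile 62.8 in HL-60 to 82.6 in MOLM-13. HSPA5 was ranked the other way, at 16.18 ± 0.0094 and percentile 99.6 in HL-60 against 14.75 ± 0.073 and 97.9 in MOLM-13. Near the top in both, HSPA8, HSP90AA1, HSP90AB1 and HSPD1 lay at percentiles 99.4 to 99.8 in HL-60 and 99.5 to 99.9 in MOLM-13. The transcripts of HSPA1A and HSPA1B share 67.3% of the 100-base stretches of HSPA1A, so reads may have been split between them and their values are uncertain and not independent.

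**Figure D1:**
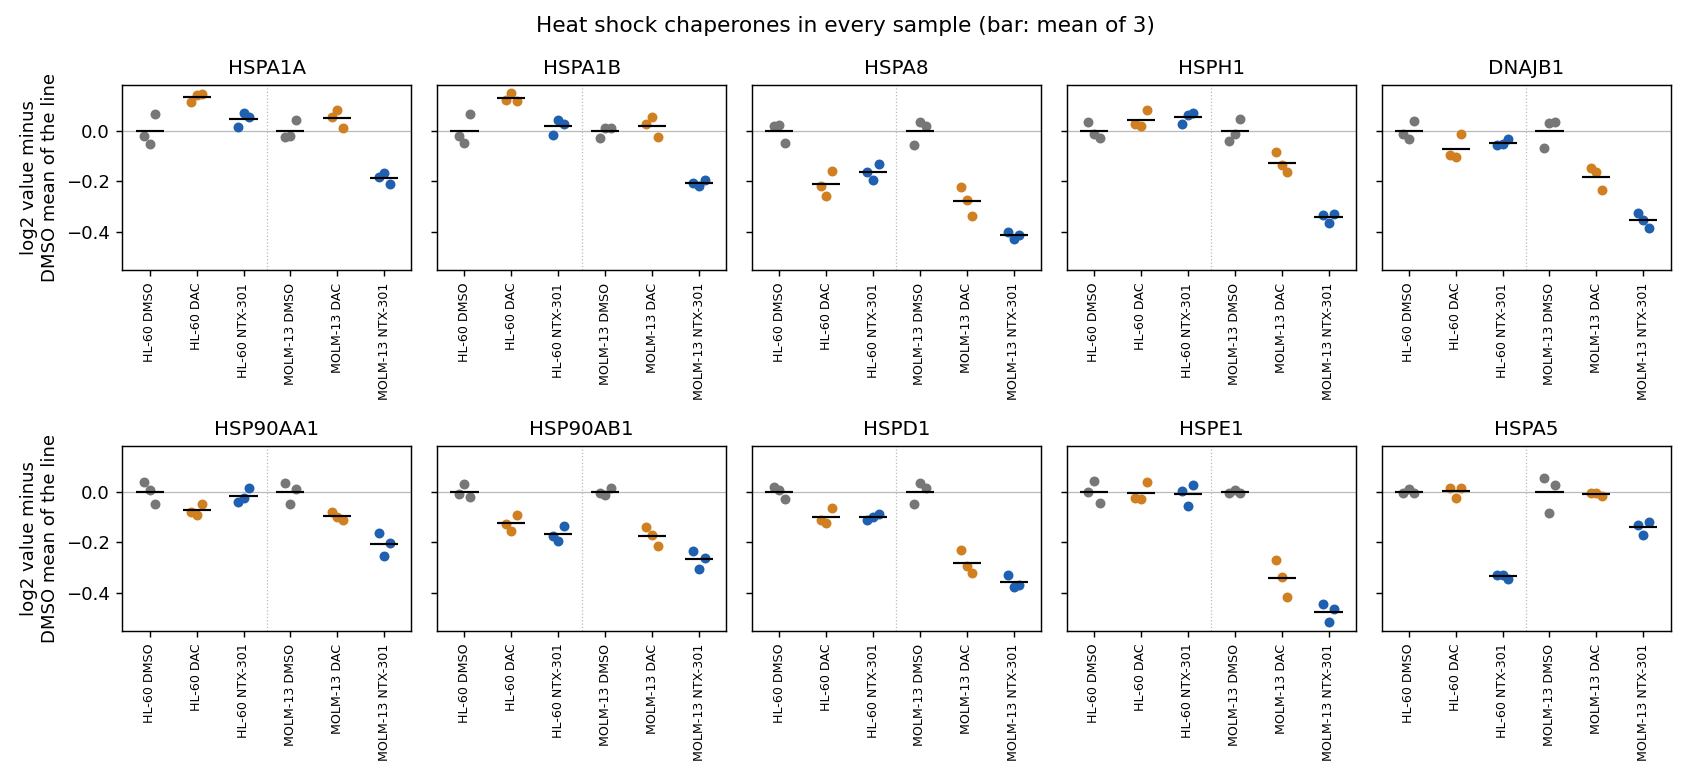
Each panel plots 1 gene, with the log2 value minus the DMSO mean of the same line on the y axis and the 6 groups on the x axis; points are the 3 samples of a group and bars their means. With NTX-301 all 10 genes lie below every control in MOLM-13, as did 28.6% of all genes tested. In HL-60 HSPA5 has the lowest NTX-301 mean, at -0.33.

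NTX-301 lowered the whole set in MOLM-13. All 10 genes fell, by between 9.32% (HSPA5) and 28.1% (HSPE1) on the linear scale, and the 3 treated samples lay below the 3 controls for every gene. Of all 17475 genes tested, 24.8% were called lower, 20.3% higher and 45.1% in either direction (limma, Benjamini-Hochberg adjusted p under 0.05), and groups lay apart with the drug lower for 28.6%. The median log2 difference of the 10 genes was -0.30 against 0.0034 over all genes. Quantile normalization, which gives all samples 1 distribution of values, made that median -0.20 and kept 9 of the 10 calls. After centring each sample on its median the balance over all genes moved from 3543 higher and 4337 lower to 2735 and 5760.

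The mitochondrial pair HSPE1 and HSPD1 fell in MOLM-13 with both drugs, and HSPE1 passed no test in HL-60. HSPE1, the lid of the folding chamber, had log2 values of 13.20, 13.20 and 13.20 in MOLM-13 controls, 12.93, 12.86 and 12.78 with DAC, and 12.75, 12.68 and 12.73 with NTX-301. The control values were nearly identical and no treated value reached them. The log2 difference from DMSO was -0.34 with DAC (SE 0.035, limma adjusted p = 2.28e-05) and -0.48 with NTX-301 (SE 0.035, adjusted p = 1.62e-06). HSPD1, the chamber itself, had a mean of 16.12 ± 0.043 in controls, 15.84 ± 0.047 after DAC and 15.77 ± 0.024 after NTX-301 (SD, n = 3). Its log2 differences were -0.28 and -0.36. In HL-60 HSPE1 overlapped across the groups, with means of 12.51, 12.50 and 12.50, and 95% intervals of the log2 difference from -0.068 to 0.059 (DAC) and -0.073 to 0.055 (NTX-301). HSPD1 fell there by 0.099 on the log2 scale with each drug (adjusted p = 0.0024 and 0.0011). Quantile normalization ended its DAC call there, at -0.031 (adjusted p = 0.12). The 2 starts lie head to head on chromosome 2, and 8.36% of the 100-base stretches of HSPE1 also occur in HSPE1-MOB4.

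HSPA8, the constitutive cytosolic HSP70 that also uncoats clathrin vesicles, fell in every comparison with DMSO. In HL-60 its log2 values were 16.80, 16.81 and 16.74 with DMSO, 16.56, 16.52 and 16.62 with DAC, and 16.62, 16.59 and 16.65 with NTX-301. No treated value reached the controls, and the 2 drugs overlapped. In MOLM-13 they were 17.59, 17.69 and 17.67 with DMSO, 17.43, 17.38 and 17.31 with DAC, and 17.25, 17.22 and 17.24 with NTX-301, with 3 separate groups. The log2 difference was -0.21 (DAC, SE 0.027, limma adjusted p = 7.37e-05) and -0.16 (NTX-301, adjusted p = 0.00028) in HL-60, and -0.28 (DAC, SE 0.035, adjusted p = 9.17e-05) and -0.41 (NTX-301, adjusted p = 3.75e-06) in MOLM-13.

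The inducible genes HSPA1A and HSPA1B were called higher with DAC in HL-60 and lower with NTX-301 in MOLM-13. The DAC effect passed no test of a difference between lines for either gene (limma adjusted p = 0.18 and 0.055). Between the drugs in HL-60, HSPA1B was called (limma adjusted p = 0.027) and HSPA1A was not (0.094). In HL-60 HSPA1A had log2 values of 9.04, 9.01 and 9.13 with DMSO, 9.17, 9.20 and 9.20 with DAC, and 9.07, 9.13 and 9.11 with NTX-301. The DAC samples lay above the controls, while the NTX-301 samples overlapped them. DAC raised HSPA1A by 9.93% (log2 difference 0.14, SE 0.038, limma adjusted p = 0.018) and HSPA1B by 9.51% (0.13, SE 0.035, adjusted p = 0.015). Both calls were lost without DMSO replicate 2 or without DAC replicate 2, at adjusted p up to 0.077 and 0.068, and that of HSPA1A also without DMSO replicate 1 or DAC replicate 3. In MOLM-13 HSPA1A stood at 12.17, 12.17 and 12.23 with DMSO, 12.25, 12.27 and 12.20 with DAC, and 12.01, 12.02 and 11.98 with NTX-301. Only the NTX-301 samples lay apart from the controls, below them. HSPA1A fell there with NTX-301 by 12.1% and HSPA1B by 13.3% (adjusted p = 0.00026 and 6.45e-05). With DAC the differences were 0.051 and 0.021 on the log2 scale (95% intervals -0.011 to 0.11 and -0.036 to 0.077), and quantile normalization made them 0.11 and 0.10, both called higher.

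HSPH1, the HSP110 protein that serves HSP70 as an exchange factor, and DNAJB1 fell in MOLM-13 and did not pass the test in HL-60. In MOLM-13 HSPH1 values were 14.75, 14.78 and 14.84 with DMSO, 14.70, 14.65 and 14.62 with DAC, and 14.46, 14.42 and 14.46 with NTX-301, in 3 separate groups. The falls were 8.46% (DAC) and 21.1% (NTX-301; adjusted p = 0.0044 and 3.75e-06). Quantile normalization took the DAC difference of HSPH1 from -0.13 to -0.035 on the log2 scale and ended its call (adjusted p = 0.22). DNAJB1 values were 12.50, 12.60 and 12.60 with DMSO, 12.42, 12.41 and 12.33 with DAC, and 12.24, 12.22 and 12.18 with NTX-301, again in 3 separate groups. Its falls were 11.8% (DAC) and 21.7% (NTX-301; adjusted p = 0.0016 and 1.03e-05). In HL-60 the differences of HSPH1 were 0.044 and 0.055, and those of DNAJB1 -0.069 and -0.046 (DAC and NTX-301, adjusted p between 0.087 and 0.27).

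Of the cytosolic HSP90 pair, HSP90AB1, the constitutive form, fell in all 4 comparisons and HSP90AA1, the inducible form, by less or without a call. HSP90AB1 went from a mean of 16.25 ± 0.026 in HL-60 controls to 16.13 ± 0.033 with DAC and 16.09 ± 0.030 with NTX-301, falls of 8.32% and 10.9%. In MOLM-13 it went from 17.16 ± 0.014 to 16.99 ± 0.038 and 16.90 ± 0.036, falls of 11.4% and 16.9% (SD, n = 3). HSP90AA1 fell by 4.96% with DAC in HL-60 (adjusted p = 0.035) and in MOLM-13 by 6.45% (DAC) and 13.4% (NTX-301; adjusted p = 0.025 and 0.00016). With NTX-301 in HL-60 it differed from DMSO by -0.017 (95% interval -0.067 to 0.034). The 2 transcripts share none of their 100-base stretches. The DAC calls of HSP90AA1 were the least firm: quantile normalization took the log2 difference from -0.073 to -0.023 in HL-60, from -0.096 to -0.012 in MOLM-13, and ended both. In HL-60 the call was also lost with no trend, with the replicate block, and without DMSO replicate 1 or 2 or DAC replicate 1 or 2, and in MOLM-13 without DMSO replicate 1 or 3 or DAC replicate 2 or 3 (adjusted p up to 0.52 and 0.81 over all alternatives).

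HSPA5, the ER chaperone that senses unfolded proteins, fell with NTX-301 in both lines and passed no test with DAC. In HL-60 its log2 values were 16.18, 16.19 and 16.18 with DMSO, 16.20, 16.16 and 16.20 with DAC, and 15.85, 15.85 and 15.84 with NTX-301. The DAC samples overlapped the controls and the NTX-301 samples lay well below both. HSPA5 fell by 20.7% with NTX-301 (log2 difference -0.33, SE 0.017, limma adjusted p = 4.06e-09), whereas the DAC difference was 0.0026 (95% interval -0.034 to 0.039). In MOLM-13 its values were 14.81, 14.67 and 14.78 with DMSO, 14.75, 14.75 and 14.73 with DAC, and 14.62, 14.58 and 14.63 with NTX-301. There it fell with NTX-301 by 9.32% (-0.14, SE 0.033, adjusted p = 0.0041), a call that quantile normalization ended, with a difference of -0.0082.

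By count, DAC in HL-60 raised 2 of the 10 genes and lowered 4, where 11.6% of 17046 genes were called higher and 12.6% lower (24.2% in all). The 2 raised were HSPA1A and HSPA1B, whose values are not independent. Without DMSO replicate 2, or without DAC replicate 2, the counts were 0 higher and 3 lower. NTX-301 in HL-60 lowered 4 and raised none, where 18.3% were called higher and 19.2% lower (37.4% in all). Taken in either direction, 4 of 10 is near the share of all genes. DAC in MOLM-13 lowered 7 and raised none, where 15.4% were called higher and 21.2% lower (36.6% in all). Centring moved the balance over all genes from 3115 higher and 3265 lower to 2310 and 5400 (NTX-301, HL-60), and from 2689 and 3705 to 1960 and 5731 (DAC, MOLM-13). The members called lower stayed at 4 and 7 after centring. The median log2 difference of the 10 genes was -0.037, -0.031 and -0.15 in these 3 comparisons, against medians of 0.0006 to 0.0013 over all genes. The 2 drugs were set against the same DMSO samples, so their counts are not independent. Under quantile normalization DAC in MOLM-13 gave 5 genes lower and 2 higher, with a median of -0.076, NTX-301 in HL-60 gave 4 lower and 1 higher, HSPH1, and DAC in HL-60 gave 2 lower and 2 higher, with a median of -0.020.

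**Figure D2:**
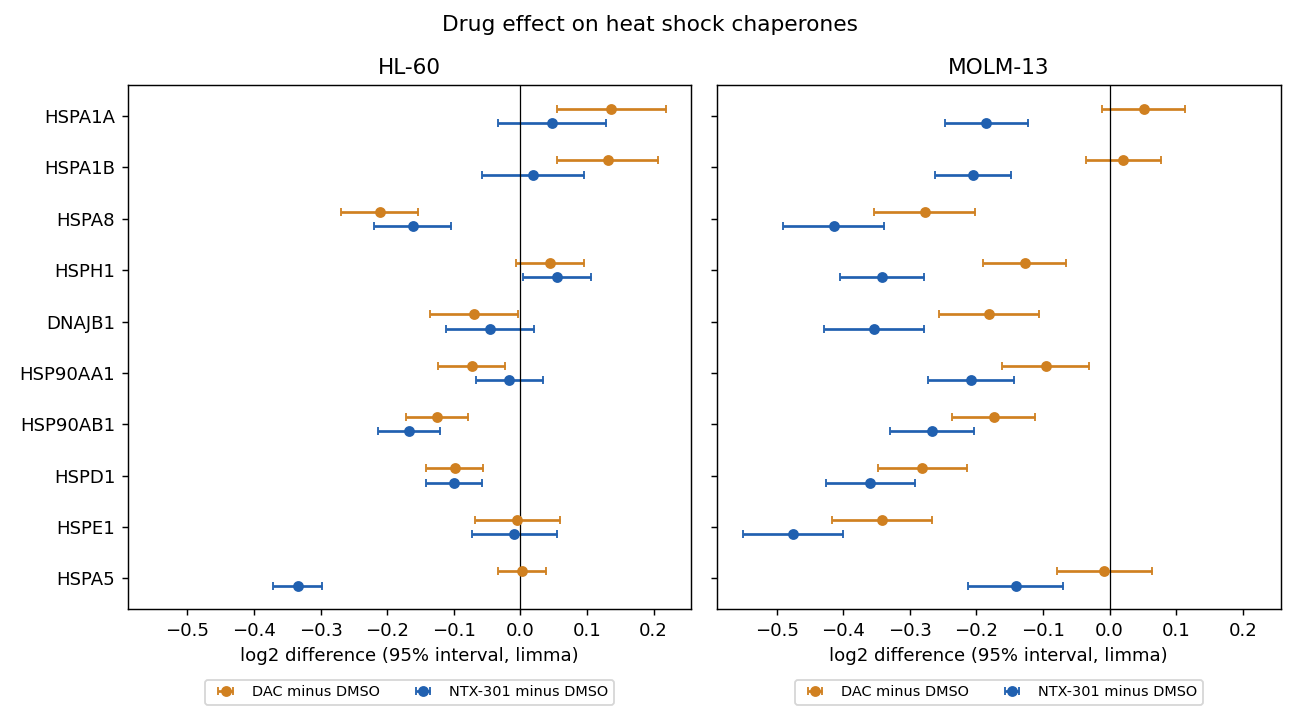
The x axis gives the log2 difference from DMSO with its 95% interval (limma) and the y axis the 10 genes, for DAC and NTX-301 in HL-60 (left) and MOLM-13 (right). In MOLM-13 the NTX-301 points run from -0.48 to -0.14, while in HL-60 the points lie on both sides of 0.

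Set directly against DAC, NTX-301 gave lower values of most of these genes in MOLM-13. In 20 comparisons (10 genes in each of 2 lines, p-values adjusted over all genes tested) 8 genes were lower with NTX-301 in MOLM-13 and 2 in HL-60. The share of all genes called lower was 4.41% in MOLM-13 (3.01% higher, 7.42% in either direction) and 15% in HL-60 (15.4% higher, 30.4% in either direction). HSPA1A was lower than with DAC by 15.1% in MOLM-13 (log2 difference -0.24, SE 0.028, limma adjusted p = 0.0012), HSPA1B by 14.5% and HSPH1 by 13.8% (adjusted p = 0.001 and 0.0018). These 3 calls held under all 15 alternatives, though those of HSPA1A and HSPA1B are not independent. The other 5 (HSPA8, DNAJB1, HSP90AA1, HSPE1 and HSPA5) lay between -0.17 and -0.11, and each was lost in at least 1 alternative: without NTX-301 replicate 2 or replicate 3 only 3 calls were left, and without DAC replicate 1 or 2 only 4. HSP90AB1 and HSPD1 missed the threshold at -0.093 (95% interval -0.16 to -0.03) and -0.078 (-0.14 to -0.011).

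In HL-60 HSPA5 and, less firmly, HSPA1B were called different between the drugs. That count, 2 of 10, is no more than the share of all genes called in either direction, 30.4%. NTX-301 left HSPA5 20.8% below its DAC level (log2 difference -0.34, SE 0.017, limma adjusted p = 9.43e-09). HSPA1B was lower by 7.48% (adjusted p = 0.027), a call lost without DAC replicate 1 or 2 and without NTX-301 replicate 1 or 3. For the other 8 genes the 95% intervals ran from -0.17 (HSPA1A) to 0.11 (HSPA8), which leaves room for differences of that size. Over all genes the balance was 2622 higher and 2563 lower, and 1818 and 4860 after centring.

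**Figure D3:**
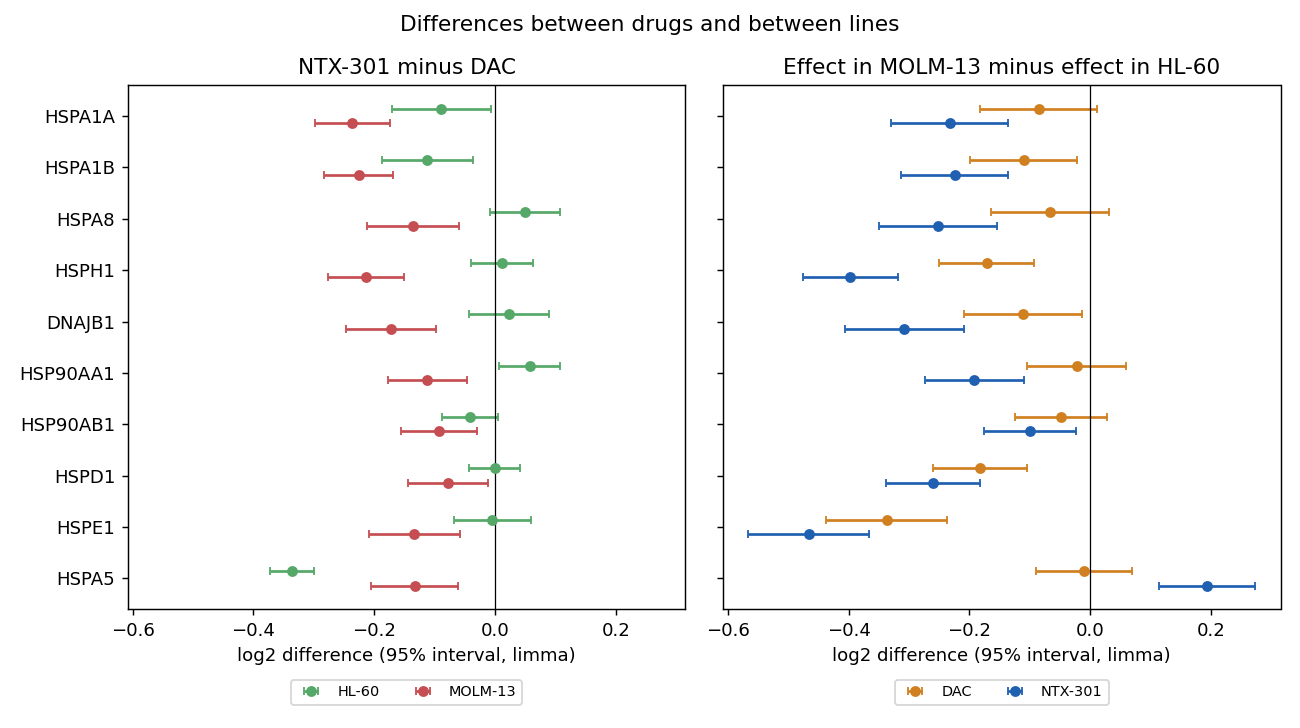
The left panel gives the log2 difference of NTX-301 from DAC in each line and the right panel the MOLM-13 effect less the HL-60 effect of each drug, with 95% intervals (limma) on the x axis and the 10 genes on the y axis. HSPA5 stands lowest on the left in HL-60 (-0.34) and is the gene to the right of 0 for NTX-301 on the right (0.19).

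The lines were compared through their drug effects, taking the HL-60 effect from the MOLM-13 effect. For NTX-301 it differed for all 10 genes, 9 lower in MOLM-13 and HSPA5 less lowered there, where 22.4% of 15474 genes were called lower and 17.6% higher (40% in all). The differences were largest for HSPE1 (-0.47, SE 0.048, limma adjusted p = 3.28e-07), HSPH1 (-0.40, adjusted p = 1.19e-07) and DNAJB1 (-0.31, adjusted p = 3.56e-05). HSPA5 went the other way (0.19, SE 0.038, adjusted p = 0.00047). For DAC 3 of the 10 genes differed, HSPE1 (-0.34), HSPD1 (-0.18) and HSPH1 (-0.17), all lower in MOLM-13. That count is no more than the share of all genes called, 30%. Of all genes 17.9% were called lower and 12.1% higher (1871 higher and 2767 lower, and 1359 and 4382 after centring). Quantile normalization ended the NTX-301 calls of HSPA1A (-0.11) and HSP90AB1 (-0.0090). The call of HSP90AB1 also ended in 7 of 18 leave-one-out fits, namely without DMSO replicate 1 or 3 or NTX-301 replicate 1 or 3 of HL-60, and without DMSO replicate 3 or NTX-301 replicate 2 or 3 of MOLM-13.

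The wider chaperone network was followed in 90 genes in 9 lists, of which 85 were tested in each line. The lists were chosen with earlier results of these data known, so their counts are descriptive. With NTX-301 in MOLM-13 65 of the 85 fell and 2 rose, where 24.8% of all genes were called lower and 20.3% higher. With DAC there 52 fell and 3 rose (all genes 21.2% and 15.4%). In HL-60 36 fell and 6 rose with NTX-301 (19.2% and 18.3%). With DAC in HL-60 17 fell and 9 rose (12.6% and 11.6%), and the share that rose was near that of all genes. Of 4 heat shock factors and regulators none passed the test in HL-60, 1 fell with DAC in MOLM-13, and 2 fell and 1 rose with NTX-301 there. HSBP1, which binds heat shock factors and was picked after its values were seen, fell in MOLM-13 by 0.23 after DAC (adjusted p = 0.0005) and by 0.25 after NTX-301 (adjusted p = 0.00019). HSF1, the main stress factor, passed no test, with log2 differences from -0.056 to 0.035 over the 4 comparisons with DMSO. HSF2 fell with NTX-301 in MOLM-13 (-0.18, limma adjusted p = 0.0031). HSF4 rose there (0.19, adjusted p = 0.018), from the low level of 5.76 ± 0.044. Quantile normalization ended the HSF4 call (0.14, adjusted p = 0.073). It was also lost without DMSO replicate 1 or 3 or NTX-301 replicate 2 or 3 (adjusted p up to 0.075). BAG3, a stress-inducible exchange factor, passed no test either (-0.065 to 0.026). Its control level was low in HL-60 (3.72 ± 0.012) and 9.65 ± 0.027 in MOLM-13. HSPB1, the small heat shock protein, rose with NTX-301 in HL-60 (0.15, limma adjusted p = 0.0013), from the low level of 4.87 ± 0.028.

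Most tested genes of the mitochondrial, CCT and prefoldin, and HSP90 co-chaperone lists fell in MOLM-13, read against the shares of all genes just given. All 10 tested mitochondrial genes were called lower with each drug there, and 8 (NTX-301) and 5 (DAC) of 10 in HL-60. HSPA9, the mitochondrial HSP70, fell by 0.31 on the log2 scale with NTX-301 in MOLM-13 and its exchange factor GRPEL1 by 0.39. TRAP1, the mitochondrial HSP90, fell by 0.39. Of 14 genes of the CCT ring, which folds actin and tubulin, and of prefoldin, which feeds it, 13 fell with each drug in MOLM-13, against 4 (DAC) and 3 (NTX-301) in HL-60, the last a share near the 19.2% of all genes. Of 14 HSP90 co-chaperones 12 fell with NTX-301 and 10 with DAC in MOLM-13, among them CACYBP (-0.40 with NTX-301). Under quantile normalization the co-chaperones called lower with DAC there numbered 5, with 1 higher, while the CCT and prefoldin count stayed at 13 for each drug and the mitochondrial counts were 9 (NTX-301) and 8 (DAC). Of 9 other cytosolic J-domain proteins 5 fell and 1 rose with each drug in MOLM-13. Of 6 exchange factors of HSP70 5 fell with NTX-301 and 3 with DAC there, and of 6 other HSP70 and HSP110 proteins 3 with each. DNAJA1, a J-domain partner of HSPA8, fell by 0.33 with NTX-301 and 0.23 with DAC in MOLM-13, and by 0.14 with DAC in HL-60. HSPA4, an HSP110 relative, fell by 0.25 with NTX-301 and 0.18 with DAC in MOLM-13, and HSPA14, a ribosome-bound HSP70, by 0.46 and 0.38. DNAJB2, a J-domain protein that directs clients to degradation, rose with both drugs in MOLM-13 (0.38 with DAC, 0.40 with NTX-301) and with NTX-301 in HL-60 (0.29).

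**Figure D4:**
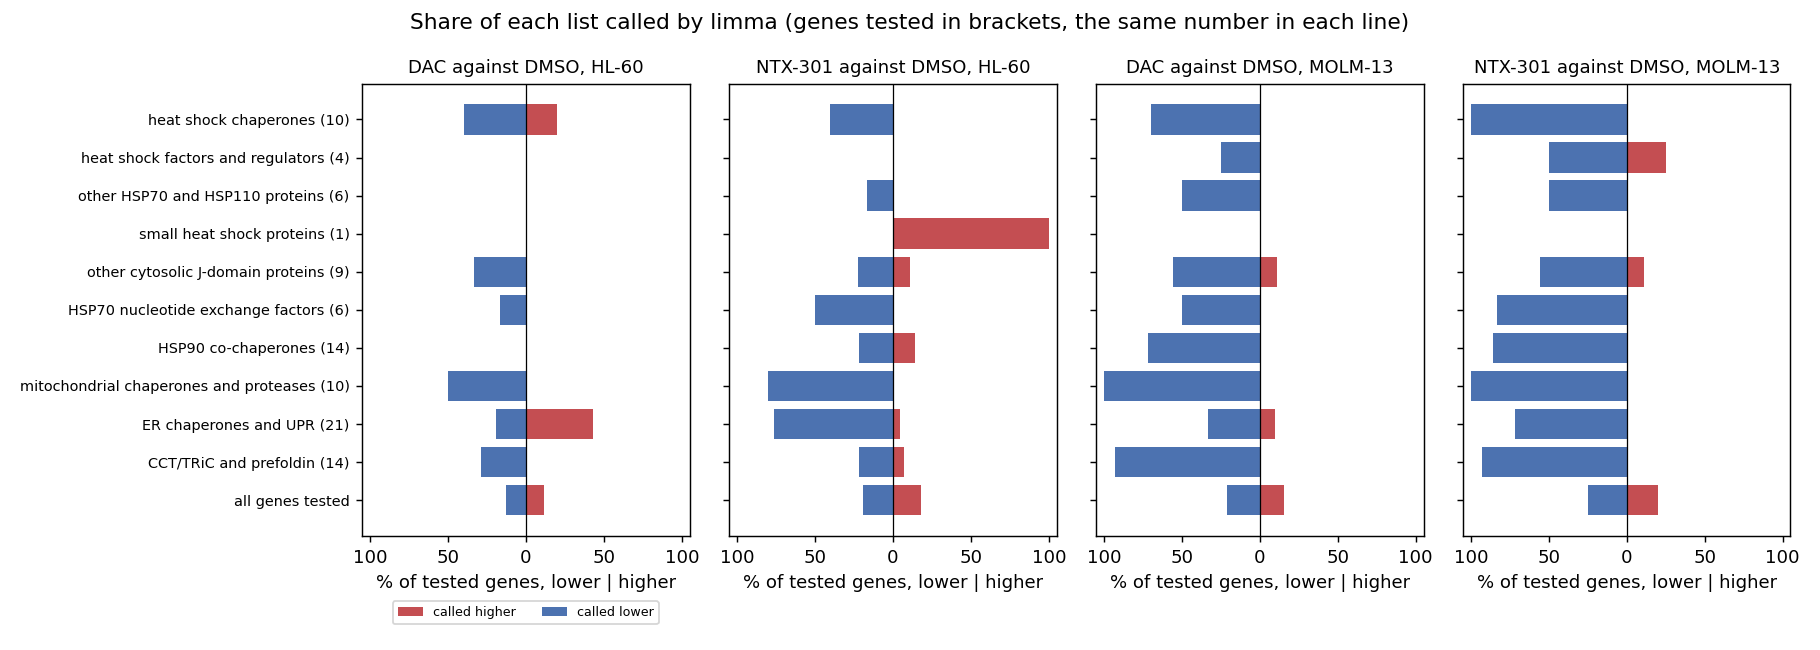
Bars give the percent of each list's tested genes called higher (right of 0) or lower (left) against DMSO, 1 panel per drug and line, with all genes tested as the last bar. The mitochondrial list reaches 100% lower in both MOLM-13 panels (10 of 10), and the ER list changes side between the HL-60 panels.

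The ER list, like HSPA5, differed between the drugs in HL-60. Of its 21 genes 9 rose and 4 fell with DAC, whereas 1 rose and 16 fell with NTX-301 (8 and 2, and 3 and 15, under quantile normalization). Of all genes 11.6% rose and 12.6% fell with DAC, and 18.3% rose and 19.2% fell with NTX-301. Set directly against DAC, 17 were lower with NTX-301 and 1 higher (all genes 15% and 15.4%), with a median log2 difference of -0.19 against 0.0004 over all genes. HERPUD1, which works in ER-associated degradation, fell most with NTX-301 (-0.62, SE 0.022, limma adjusted p = 1.12e-10), then SDF2L1 (-0.53) and DNAJB9 (-0.41), both partners of HSPA5. HSP90B1, the ER form of HSP90, fell by 0.18 with NTX-301 and had a difference of 0.055 with DAC (adjusted p = 0.059). CALR, a lectin chaperone of glycoproteins, rose with DAC (0.14, adjusted p = 2.52e-05) and differed by -0.0024 with NTX-301 (adjusted p = 0.93), which quantile normalization turned into a called rise of 0.13. HYOU1, the ER HSP110, and CANX, the membrane lectin, were picked after their values were seen: HYOU1 rose by 0.11 with DAC and fell by 0.27 with NTX-301, and CANX rose by 0.086 and fell by 0.23, where quantile normalization turned the DAC value of CANX to -0.029 and ended its call. XBP1, a transcription factor of the unfolded protein response, fell by 0.13 with each drug. The sensor ERN1 rose with DAC (0.11, adjusted p = 0.005). With NTX-301 the sensors ATF6 and ERN1 passed no test (0.042 and 0.044), and the sensor EIF2AK3 fell by 0.12. Of 20 list genes with a promoter window, 6 held the ER stress element shown for HSPA5, namely HSP90B1, CALR, CANX, PDIA6, CRELD2 and XBP1.

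**Figure D5:**
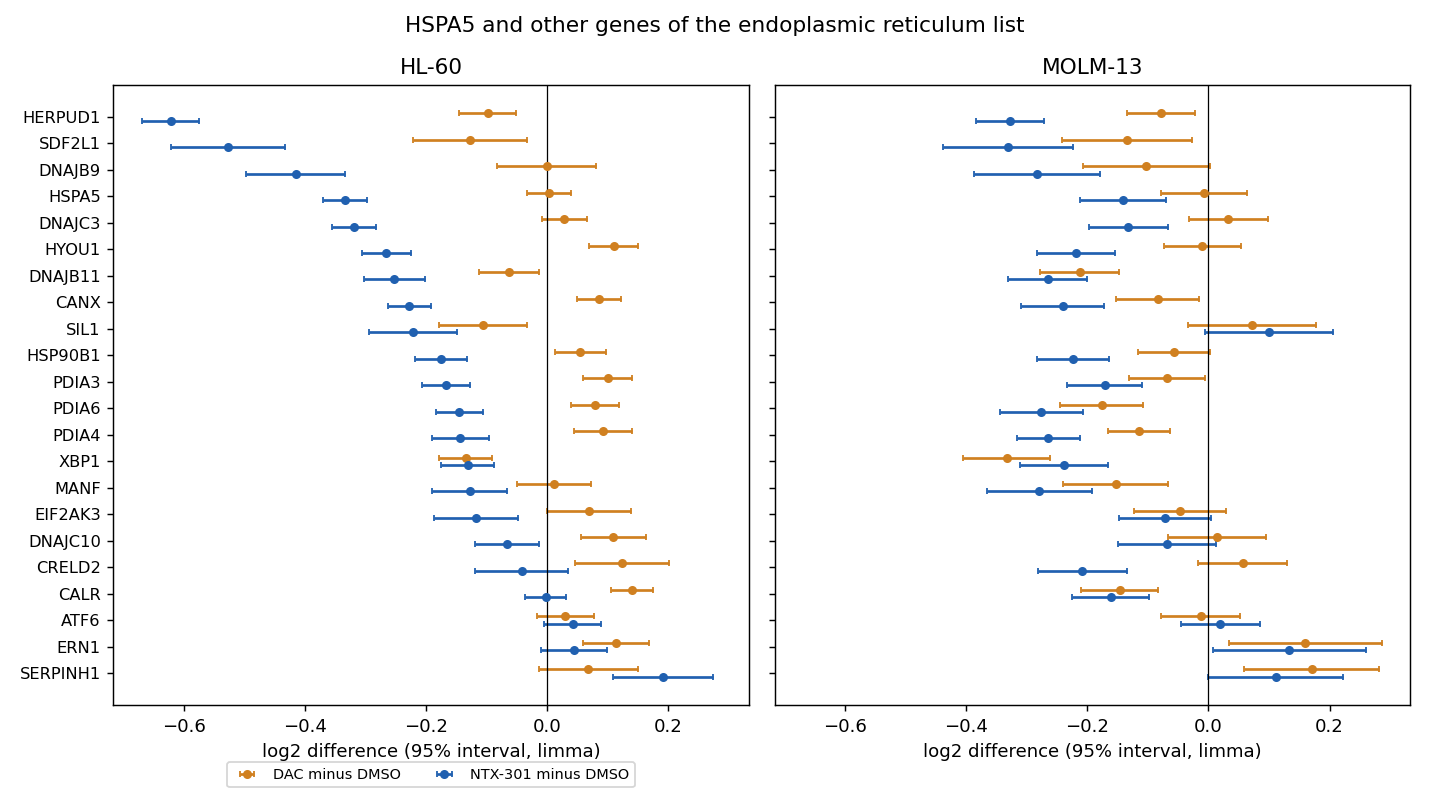
HSPA5 and the 21 genes of the ER list are ordered on the y axis by their NTX-301 difference in HL-60, and the x axis gives the log2 difference from DMSO with its 95% interval (limma) for each drug in HL-60 (left) and MOLM-13 (right). In HL-60 the NTX-301 points reach -0.62 (HERPUD1), while the DAC points lie between -0.13 and 0.14.

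In MOLM-13 the ER list had 7 genes lower and 2 higher with DAC, where 21.2% of all genes were lower and 15.4% higher. Taken in either direction, that DAC share is near the 36.6% of all genes. With NTX-301 15 were lower and none higher, where the shares were 24.8% and 20.3%. Under quantile normalization the counts were 5 lower and 2 higher with DAC, and 13 lower and 1 higher with NTX-301. For NTX-301 the effect differed between lines for 10 of the 21 genes, 4 of them less lowered or higher in MOLM-13 and 6 more lowered or lower, a share near the 40% of all genes called in that comparison. Against DAC, 9 were lower with NTX-301 and none higher (all genes 4.41% and 3.01%).

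Genes whose 4 drug differences lay closest to those of the 3 most changed members were found among 15474 genes, by distance on the log2 scale. Nearest to HSPE1 were TMPO, a nuclear lamina protein (distance 0.028), and MCM6, a subunit of the replication helicase (0.030), both near 0 in HL-60 and between -0.49 and -0.36 in MOLM-13. Nearest to HSPD1 were DDX39A (0.023), an RNA helicase, and BCCIP (0.025), and nearest to HSPA8 were BOLA3 (0.068) and C1QBP (0.076), both mitochondrial proteins. The distance is a description over 4 differences that share controls.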

How the data were processed

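RNA of HL-60 and MOLM-13 cells was sequenced from stranded total RNA libraries in 18 samples. The authors deposited 1 normalized log2 value per gene and sample. The normalization and the use of strand are not given in the sources used here. Per the submitters' processing notes, FastQC, Trimmomatic 0.38, HISAT2, StringTie and build hg19 were used, with no roles stated. The gene sets differ between lines, so tests were made within a line. Depth is unknown, so the precision rests on the scatter of replicates, pooled over the groups of a fit and adjusted with that of other genes.

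Genes reaching a linear value of 1 in 3 or more samples were tested (17046 in HL-60, 17475 in MOLM-13) with limma 3.58.1 in R 4.3.3 (lmFit, eBayes with trend, two-sided, Benjamini-Hochberg over all genes, threshold 0.05). The 9 samples of a line entered 1 fit, and all 18 entered the fit of differences between lines (15474 genes). The fit within a line was tried on simulated data, for DAC against DMSO only, and the other steps were not. Alternatives were centring, quantile normalization, no trend, no filter, a replicate block, only the groups compared, and leaving out each replicate.

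The 10 genes and the lists were chosen with earlier results of these data known. Named genes were the 10 members; per drug and line, the 3 network genes with the largest rise and fall among those called; HSF1, HSF2, BAG3, HSPB1, HSP90B1, HSPA9, TRAP1, DNAJA1 and HSPA4 whatever their values; and, for the 3 members with the longest profile of 4 drug differences, the 2 nearest genes. Other ER genes were named after their values were seen. Motifs were searched in RefSeq promoter windows, and shared 100-base stretches in GENCODE transcripts.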

Additional observations from a re-analysis of the deposited data

Results flagged for a closer look

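Drug effects that were unequal in the 2 lines were found by testing the difference (limma, 1 fit of all 18 samples, adjusted over 15474 genes). Values are the log2 difference from DMSO in MOLM-13 less the one in HL-60. With NTX-301 these were -0.2329 for HSPA1A, -0.2242 for HSPA1B, -0.2525 for HSPA8, -0.3969 for HSPH1 and -0.3075 for DNAJB1. They were -0.1919 for HSP90AA1, -0.0996 for HSP90AB1, -0.2598 for HSPD1 and -0.4662 for HSPE1, and 0.1932 for HSPA5, the member with the smaller fall in MOLM-13. With DAC they were -0.1717 for HSPH1, -0.1824 for HSPD1 and -0.337 for HSPE1. HSPA1A and HSPA1B share much of their sequence and are not independent. The lines were given different stated concentrations, so line and dose cannot be told apart.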

How the results depend on the processing

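In proportion, counts of called members moved most with the setting in 4 comparisons. Leaving out 1 replicate gave 3 to 6 for DAC in HL-60 (3 without DMSO replicate 2 or DAC replicate 2; 6 with all samples), 1 to 3 for NTX-301 against DAC in HL-60 (2 with all), 3 to 8 for the same in MOLM-13 (8 with all) and 3 to 5 for the DAC difference between lines (3 with all; 5 without HL-60 DMSO replicate 3 or MOLM-13 DMSO replicate 1). Centring and quantile normalization each gave 4 for NTX-301 against DAC in HL-60, and centring gave 6 for the DAC difference between lines. Smaller moves occurred elsewhere. Quantile normalization gave 9 lower for NTX-301 in MOLM-13 (10 in the main fit). For the NTX-301 difference between lines it gave 7 lower and 1 higher (9 and 1 in the main fit). DAC in MOLM-13 had 5 lower and 2 higher (7 lower in the main fit). NTX-301 in HL-60 had 4 lower and 1 higher (4 lower in the main fit). For NTX-301 against DAC in MOLM-13 the count was 4 with no trend and 5 with the replicate block. Network genes there numbered 23, and 14 with no trend, 13 with the block, 15 with only the 2 groups compared and 10 to 25 without 1 replicate (10 without NTX-301 replicate 2 or 3, 14 without DAC replicate 1 or DMSO replicate 3). All genes numbered 1297, 817 with the block and 462 to 1322 without 1 replicate (462 without NTX-301 replicate 3, 479 without replicate 2, 767 without DAC replicate 1). The cause was not tested. Same-numbered samples did not deviate together (r from -0.057 to 0.118 in HL-60 and -0.16 to 0.11 in MOLM-13), so the numbers were not taken as pairs, and the block lowered these counts.

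Quantile normalization turned 2 ER genes in HL-60: CANX with DAC (a called rise, to -0.0285, not called) and CALR with NTX-301 (not called, to a called 0.1264). The other changes of sign below were of differences called in neither setting. Centring gave -0.0093 for HSPA1B with NTX-301 in HL-60, -0.018 for HSPH1 and -0.0055 for DNAJB1 with NTX-301 against DAC in HL-60, and -0.0164 for HSPA1B, -0.0253 for HSF1 and -0.0105 for BAG3 with DAC in MOLM-13. Quantile normalization gave, with DAC in HL-60, 0.0103 for HSPE1, -0.0179 for HSPA5 and 0.0091 for HSF2. With NTX-301 in HL-60 it gave -0.0008 for HSPA1A, 0.0272 for HSP90AA1, 0.0281 for HSPE1 and 0.0161 for HSPA4, and against DAC there -0.0163 for HSPA8 and 0.0179 for HSPE1. In MOLM-13 it gave 0.0871 for HSPA5, 0.0142 for HSP90B1 and -0.0163 for BAG3 with DAC and 0.0169 for HSF1 with NTX-301, and between lines 0.011 for HSP90AA1 and 0.1051 for HSPA5 with DAC.

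Without 1 replicate the ranges that crossed 0 were, with DAC in HL-60, -0.0264 to 0.018 (HSPE1), -0.0048 to 0.0158 (HSPA5), -0.042 to 0.0137 (HSPA4), -0.0407 to 0.0218 (HSF1), -0.037 to 0.0146 (HSF2) and -0.0064 to 0.0196 (BAG3). With NTX-301 in HL-60 they were -0.0053 to 0.0528 (HSPA1B), -0.0409 to 0.0036 (HSP90AA1) and -0.0308 to 0.0149 (HSPE1), and against DAC there -0.0124 to 0.0171 (HSPD1) and -0.0225 to 0.0193 (HSPE1). In MOLM-13 with DAC they were -0.0492 to 0.0199 (HSPA5) and -0.0079 to 0.0503 (HSF1), and between lines with DAC -0.0463 to 0.0018 (HSP90AA1) and -0.0518 to 0.0173 (HSPA5).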
